A study of Homo sapiens with 6 samples.

Results

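The E2F family of transcription factors, with their DP dimerization partners, was described in SKOV3 cells, a human epithelial ovarian cancer line, after silencing of EIF5A2, which encodes an isoform of the translation factor eIF5A. The 10 genes E2F1 to E2F8, TFDP1 and TFDP2 were taken by matching their symbols to the Ensembl identifiers of the count table. All 10 were found among 58825 identifiers, and all 10 passed the filter on low counts, as did 16208 genes in all, E2F2 and E2F8 through their NC libraries, since their si-EIF5A2 libraries alone would have failed it. SKOV3 cells had been transfected with a negative control siRNA (NC, 3 libraries) or with an siRNA against EIF5A2 (si-EIF5A2, 3 libraries) and were harvested after 48 h, and mRNA libraries were sequenced. Both groups carried a transfected siRNA and no other manipulation was labelled. The labels give replicates 1 to 3 in each group and do not say whether these were separate cultures, so the p-values below measure only the spread between these libraries.

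E2F proteins bind DNA as dimers with a DP protein and switch genes of DNA replication and cell division on or off as cells pass from G1 into S phase. In resting and early G1 cells the pocket proteins RB1, RBL1 and RBL2 hold E2F in check. Cyclin-dependent kinases phosphorylate the pocket proteins and so free the activators E2F1, E2F2 and E2F3. E2F4 and E2F5 act mainly as repressors together with pocket proteins, and E2F6 represses without them, as part of a Polycomb complex. E2F7 and E2F8 are the atypical repressors, which bind DNA without a DP partner and shut off the E2F genes late in the cycle. Several E2F genes are themselves E2F targets.

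The E2F sites in the family's own start regions are shown first, because the family is known for regulating itself. RefSeq windows of 300 bases (250 before the start and 50 after it, build GRCh38.p14) were searched on both strands for TTTCCCGC, TTTCGCGC, TTTGCCGC and TTTGGCGC, the exact forms of the classical E2F site. These motifs do not overlap in the matches found. Windows were given for 8 of the 10 genes, and E2F5 and E2F8 had none in the table used. A match was present in E2F1, E2F2, E2F3 and TFDP1, that is in 50% of the 8 genes, compared with 3.99% of 27305 genes with a window. The stretches around these matches are printed on the gene's strand from 5′ to 3′, with the motif (or its reverse complement) in capitals.
E2F1, chr20:33686384-33686432, minus strand: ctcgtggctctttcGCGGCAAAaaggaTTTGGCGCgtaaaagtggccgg
E2F2, chr1:23531254-23531289, minus strand: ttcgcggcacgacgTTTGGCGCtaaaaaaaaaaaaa
E2F3, chr6:20401812-20401847, plus strand: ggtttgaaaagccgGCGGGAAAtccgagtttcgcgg
TFDP1, chr13:113584619-113584654, plus strand: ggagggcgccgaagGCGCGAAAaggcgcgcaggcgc

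E2F1 was the only one of the 8 genes with more than 1 match, and its 2 motifs, on opposite strands, began 33 and 20 bases before the start (positions -33 and -20). The match of E2F2 began at -42, that of E2F3 at -53 in the upstream one of its 2 windows, and that of TFDP1 at -120. No match was present in the windows of E2F4, E2F6, E2F7 and TFDP2, which says only that these letters are not in those bases. A 6-letter core (TTTCCCGC and its relatives without their leading TT) was present in 8 of 8 genes and in 50.2% of all genes with a window. A letter match is a description of sequence and no binding was measured.

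The 6 libraries held 46900204 to 74142267 estimated counts each. Levels are given as CPM, the counts of a gene per 1000000 counts of the library. Pearson's r of log2 CPM across genes was 0.964 to 0.974 within groups and 0.929 to 0.938 between them. EIF5A2 itself was at 29.1 ± 1.15 CPM in NC against 3.69 ± 0.817 CPM in si-EIF5A2 (SD, n = 3 each), and its log2 fold change was -2.98. Epithelial markers were present, with ERBB2, known to be amplified in this line, at 45.9 CPM and KRT8 at 608 CPM in NC, whereas EPCAM (1.55 CPM) and CDH1 (0.66 CPM) were low. The summed level of 10 epithelial markers was 1508 to 1675 CPM in NC and 959 to 1171 CPM in si-EIF5A2. The 5 leukocyte markers summed to 40.8 to 57.3 CPM in NC and 28.97 to 55.5 CPM in si-EIF5A2, nearly all from CD68, whereas PTPRC and CD3E were at 0 in every library. The summed endothelial markers were 27.8 to 32.2 CPM in NC and 1.11 to 1.65 CPM in si-EIF5A2, of which CDH5 made up 28.3 ± 2.13 CPM in the controls, against 0.833 ± 0.234 CPM after silencing (SD, n = 3 each), and the summed fibroblast markers stayed at or below 2.67 CPM. The part of these marker differences in the E2F values was not tested.

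E2F1 was downregulated and E2F7 upregulated after EIF5A2 silencing, whichever single library was left out. E2F2 and E2F8 were also called lower, but their calls depended on single libraries. The other 6 genes were not called, although E2F3, in the full set of libraries, passed the limit on p and missed only the fold limit. A gene was called changed when its p, taken from the quasi-likelihood test of edgeR and adjusted by Benjamini-Hochberg over all genes tested, was under 0.05 and its fold change exceeded 1.5. By that rule 4 of 10 family genes were called, beside 24.6% of all genes tested. In si-EIF5A2, 3 of 10 were called lower (13.6% of all genes) and 1 of 10 higher (11.1% of all genes). The median log2 fold change was -0.37 over the 10 genes and -0.01 over all genes tested. In 7 of 10 genes the CPM ranges of the 2 groups did not overlap, compared with 51.2% of all genes. E2F2 and E2F8, 2 of the 4, passed the filter through the group in which they were high. With at least 10 counts in every library both fell out, and 2 of the 8 genes left were called, beside 27.8% of all genes so tested. The 4 of 10 also became 2 of 10 without NC replicate 3, beside 22.3% of all genes. These were bulk libraries, so fewer cells expressing a gene and less RNA per cell cannot be told apart.

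**Figure D1:**
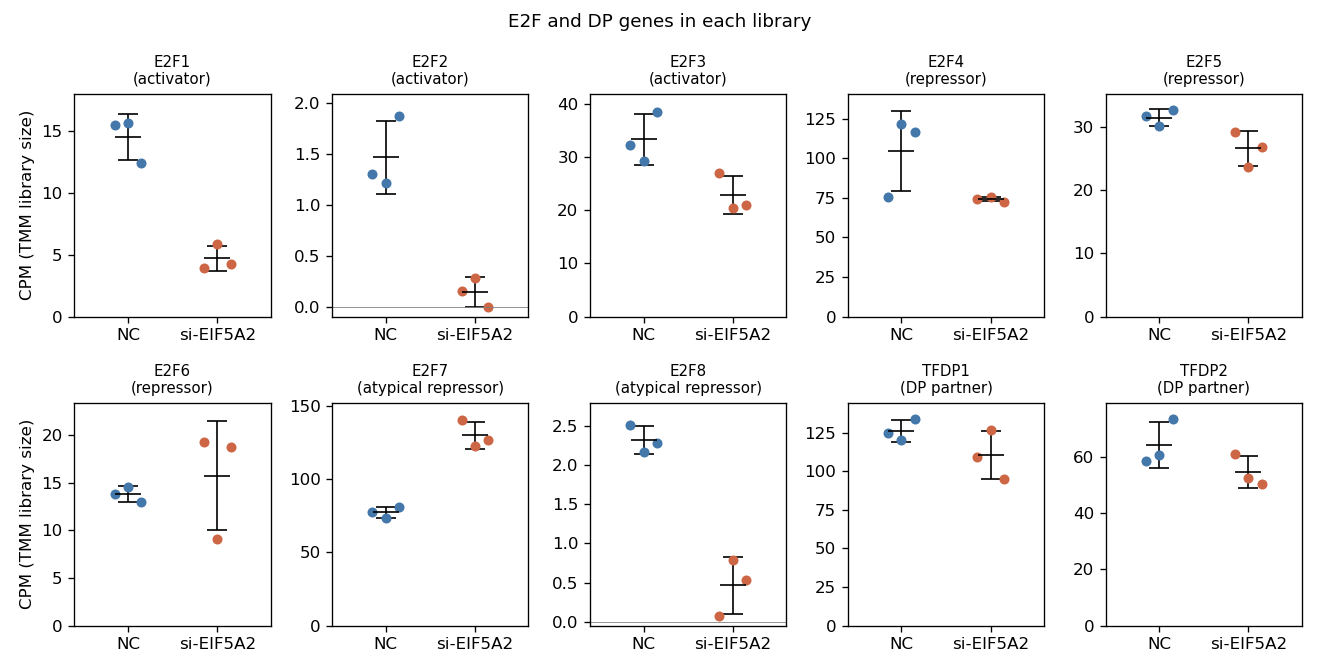
CPM (linear axis, TMM library sizes) of the 10 E2F and DP genes; each dot is 1 library (blue NC, red si-EIF5A2), the long bar is the mean and the whiskers are 1 SD (n = 3). All si-EIF5A2 dots lie below all NC dots for E2F1 to E2F5 and E2F8, for E2F4 only just. They lie above them for E2F7, whereas the dots of E2F6, TFDP1 and TFDP2 mix.

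E2F1 (ENSG00000101412, chromosome 20, 33675683 to 33686404, minus strand, GENCODE 29 on GRCh38), the prototype activator, was at 15.5, 15.6 and 12.4 CPM in NC and at 3.95, 5.88 and 4.25 CPM in si-EIF5A2. The highest si-EIF5A2 library lay well under the lowest NC library, and 32.4% of the NC mean was left. Its log2 fold change of -1.63 was called (standard error 0.19, 95% interval -2.07 to -1.18, adjusted p = 4.05e-04 in the edgeR quasi-likelihood fit, Benjamini-Hochberg). Omitting any single library gave -1.82 to -1.52, and the call was kept.

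E2F2 (ENSG00000007968, chromosome 1, 23506430 to 23531220, minus strand), the second activator, was rare in these cells. It was at 1.30, 1.21 and 1.87 CPM in NC and at 0.156, 0.287 and 0 CPM in si-EIF5A2. The counts of the table rise in steps of about 3.86, the weight of 1 fragment, so the si-EIF5A2 values rested on about 2.1, 3.9 and 0 fragments. A count of 0 allows up to 3 fragments, or 0.245 CPM in that library, and the first library was also under its own limit of 0.229 CPM. The groups did not overlap, and 10.1% of the NC mean was left. The fitted log2 fold change of -3.27 was called (standard error 0.88, adjusted p = 0.0225 in the edgeR quasi-likelihood fit, Benjamini-Hochberg), with a wide 95% interval of -5.33 to -1.21. The call of E2F2 was lost without NC replicate 1 (adjusted p = 0.0577), NC replicate 2 (0.0532), NC replicate 3 (0.0717) or si-EIF5A2 replicate 1 (0.0771), although the fold change stayed between -4.16 and -2.71.

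E2F3 (ENSG00000112242, chromosome 6, 20401906 to 20493715, plus strand), the third activator, was at 32.3, 29.3 and 38.6 CPM in NC and at 27.0, 20.5 and 21.0 CPM in si-EIF5A2. Every si-EIF5A2 library was under every NC library. Its log2 fold change of -0.55 (standard error 0.15, 95% interval -0.89 to -0.21) had an adjusted p of 0.0211 in the edgeR quasi-likelihood fit (Benjamini-Hochberg) but was smaller than the limit of 0.58, so it was not called. E2F3 passed both limits when NC replicate 2 (-0.64) or si-EIF5A2 replicate 1 (-0.69) was omitted. It missed both without NC replicate 3 (-0.44, adjusted p = 0.0664), si-EIF5A2 replicate 2 (-0.48, 0.0711) or si-EIF5A2 replicate 3 (-0.50, 0.06995) in the same test. Thus 2 of 3 activators, E2F1 and E2F2, were called in the full set of libraries, beside 24.6% of all genes. Without NC replicate 1 or NC replicate 3, 1 of 3 was called (21.9% and 22.3% of all genes). Without NC replicate 2 or si-EIF5A2 replicate 1 the count stayed at 2, because E2F3 was called in place of E2F2.

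E2F4 (ENSG00000205250, chromosome 16, 67192169 to 67198918, plus strand), the main repressor of resting cells, was at 75.5, 121.5 and 116 CPM in NC and at 74.15, 75.4 and 72.6 CPM in si-EIF5A2. NC replicate 1 stood apart from the other 2 NC libraries and met the si-EIF5A2 level, with 75.50 CPM against 75.43 CPM in the highest si-EIF5A2 library. The log2 fold change of -0.50 (standard error 0.17) did not pass, with an adjusted p of 0.0594 in the edgeR quasi-likelihood fit (Benjamini-Hochberg). Without NC replicate 1 it was -0.68 (adjusted p = 7.82e-04) and E2F4 was called.

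E2F5 (ENSG00000133740, chromosome 8, plus strand), the other pocket-protein-dependent repressor, was at 31.8, 30.1 and 32.7 CPM in NC and at 29.3, 23.7 and 26.9 CPM in si-EIF5A2. The ranges did not overlap but lay close together. Its log2 fold change was -0.24 (95% interval -0.49 to -0.00142) with an adjusted p of 0.109 in the edgeR quasi-likelihood fit (Benjamini-Hochberg), and it was not called. In GENCODE 29, 16.4% of its 5928 exon bases are shared with C8orf59 on the opposite strand, and the sources used here do not state stranded counting. C8orf59 was at 52.9 ± 1.68 CPM in the controls and 53.6 ± 2.06 CPM after silencing (SD, n = 3 each).

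E2F6 (ENSG00000169016, chromosome 2, 11444375 to 11466177, minus strand), the Polycomb-associated repressor, was at 13.9, 14.6 and 12.9 CPM in NC and at 19.2, 9.12 and 18.8 CPM in si-EIF5A2. The si-EIF5A2 libraries straddled the NC range, with replicates 1 and 3 above it and replicate 2 below it. The log2 fold change was 0.19 (95% interval -0.46 to 0.83, adjusted p = 0.645 in the edgeR quasi-likelihood fit, Benjamini-Hochberg). Without si-EIF5A2 replicate 2 it was 0.46 (adjusted p = 0.0260), still under the fold limit.

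E2F7 (ENSG00000165891, chromosome 12, 77021247 to 77065580, minus strand), an atypical repressor, was the only family gene called higher. It was at 77.7, 73.6 and 81.2 CPM in NC and at 140.2, 123 and 127 CPM in si-EIF5A2. The groups were far apart relative to their spread, 77.5 ± 3.79 against 130.0 ± 9.02 CPM (SD, n = 3 each). The log2 fold change of 0.75 was called (standard error 0.08, 95% interval 0.56 to 0.94, adjusted p = 2.78e-04 in the edgeR quasi-likelihood fit, Benjamini-Hochberg). Omitting any single library gave 0.68 to 0.78, and the call was kept.

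E2F8 (ENSG00000129173, chromosome 11, 19224063 to 19241620, minus strand), the second atypical repressor, moved the other way. It was at 2.51, 2.16 and 2.28 CPM in NC and at 0.08, 0.79 and 0.54 CPM in si-EIF5A2, which rested on about 1.0, 10.6 and 6.7 fragments. The 3 si-EIF5A2 libraries differed several-fold among themselves but all lay under the NC range. Replicate 1 of si-EIF5A2 was under its limit of 0.229 CPM for 3 fragments, so the size of that spread is uncertain. The log2 fold change of -2.30 passed (standard error 0.65, 95% interval -3.83 to -0.77, adjusted p = 0.0280 in the edgeR quasi-likelihood fit, Benjamini-Hochberg). The call of E2F8 was lost without NC replicate 1 (adjusted p = 0.0776), NC replicate 2 (0.0658), NC replicate 3 (0.0672) or si-EIF5A2 replicate 3 (0.0770), with fold changes between -2.90 and -1.80 over all 6 omissions. Of the 5 repressors, 2 were called, 1 in each direction, beside 24.6% of all genes. Without NC replicate 2, NC replicate 3 or si-EIF5A2 replicate 3, 1 of 5 was called (21.8%, 22.3% and 22.4% of all genes). Without NC replicate 1 the count stayed at 2, because E2F4 was called in place of E2F8.

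TFDP1 (ENSG00000198176, chromosome 13, 113584721 to 113641470, plus strand), the major DP partner, was at 124, 120 and 134 CPM in NC and at 109, 126 and 95.2 CPM in si-EIF5A2. TFDP2 (ENSG00000114126, chromosome 3, 141944428 to 142149544, minus strand), the second partner, was at 58.6, 60.6 and 73.5 CPM in NC and at 61.0, 52.7 and 50.4 CPM in si-EIF5A2. Both sets of ranges overlapped. The log2 fold changes were -0.19 (95% interval -0.45 to 0.06, adjusted p = 0.216) for TFDP1 and -0.23 (95% interval -0.50 to 0.04, adjusted p = 0.170) for TFDP2 in the edgeR quasi-likelihood fit (Benjamini-Hochberg).

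**Figure D2:**
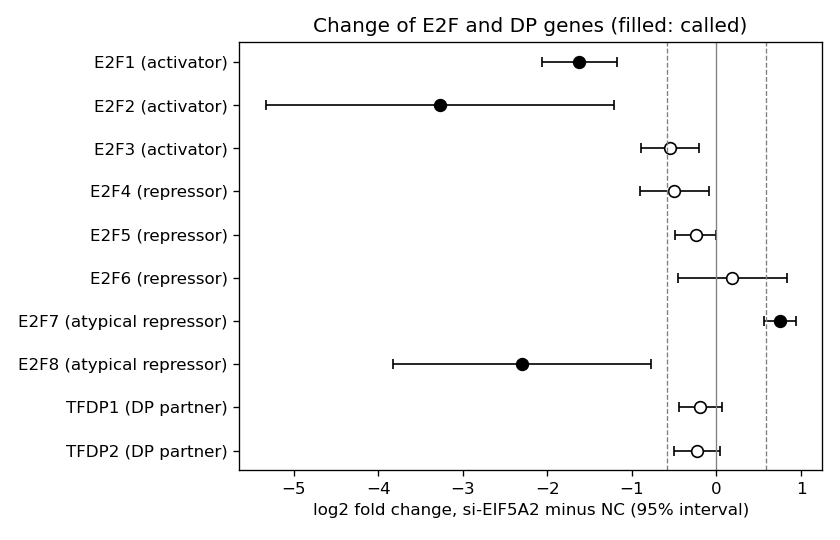
Log2 fold change of each E2F and DP gene (si-EIF5A2 minus NC, points) with its 95% interval from the edgeR fit (bars); filled points are called and the dashed lines mark a fold change of 1.5. E2F1, E2F2 and E2F8 lie left of the lower line, E2F7 (0.75) is the only filled point on the right, and the intervals of E2F2 and E2F8 are the widest.

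Levels of different genes were compared as CPM per kb of exon. The length used joins all annotated exons of a gene and need not be that of the RNA present, so the order depends on it. In NC the order was TFDP1 (33.7), E2F4 (29.2), E2F7 (12.3), E2F3 (6.47), E2F1 (5.79), TFDP2 (5.40), E2F5 (5.32), E2F6 (3.39), E2F8 (0.559) and E2F2 (0.268). TFDP1 and E2F4 overlapped between libraries, and so did each neighbouring pair from E2F3 to E2F5. By this measure E2F4 was the most abundant E2F gene of the control cells, and E2F2 and E2F8 were both more than 10 times rarer than E2F7.

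In si-EIF5A2 the order was TFDP1 (29.5), E2F4 (20.7), E2F7 (20.6), TFDP2 (4.60), E2F5 (4.49), E2F3 (4.42), E2F6 (3.87), E2F1 (1.88), E2F8 (0.113) and E2F2 (0.0271), again as CPM per kb. E2F1 moved from rank 5 to rank 8. Per kb, E2F7 reached the level of E2F4, from which it no longer separated. In CPM without that division, E2F7 (123 to 140) lay above E2F4 (72.6 to 75.4) in si-EIF5A2, and the ranges of E2F7 and E2F4 overlapped in NC. Other neighbours that did not separate were TFDP2, E2F5, E2F3, E2F6 and E2F1 in their order, and E2F8 and E2F2.

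Activator RNA went down relative to repressor RNA in every si-EIF5A2 library. The summed level of E2F1, E2F2 and E2F3 was 12.5 ± 0.354 CPM per kb in NC and 6.33 ± 0.533 in si-EIF5A2, 0.505 of the control. The summed level of the 5 repressors was 50.7 ± 6.88 and 49.8 ± 2.81 CPM per kb, with overlapping ranges. Within the repressors, E2F4 to E2F6 summed to 37.9 ± 6.99 and 29.03 ± 1.58 CPM per kb, and E2F7 with E2F8 to 12.9 ± 0.619 and 20.7 ± 1.35 (SD, n = 3 each).

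The ratio of activator to repressor RNA per kb was 0.297, 0.221 and 0.234 in the 3 NC libraries, against 0.130, 0.136 and 0.116 after silencing. All si-EIF5A2 ratios lay under all NC ratios. The mean log2 ratio differed by -0.97 between the groups. It was -0.95 without division by exon length and ranged from -1.05 to -0.84 when single libraries were omitted. No p-value is given for this sum over chosen genes.

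By share of the summed E2F RNA per kb, the activators went from 20.0% ± 2.55 to 11.3% ± 0.791, and E2F7 alone from 19.6% ± 2.43 to 36.8% ± 0.587 (SD, n = 3 each). E2F4 held 45.6% ± 6.73 of the family in NC and 36.9% ± 2.34 in si-EIF5A2. E2F1 held 9.27% ± 1.91 and then 3.37% ± 0.913. For each unit of E2F1 RNA per kb there were 1.99, 1.88 and 2.60 units of E2F7 RNA per kb in NC, and 14.1, 8.31 and 11.8 units in si-EIF5A2. DP RNA per E2F RNA was 0.622 ± 0.0666 and 0.610 ± 0.0946.

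**Figure D3:**
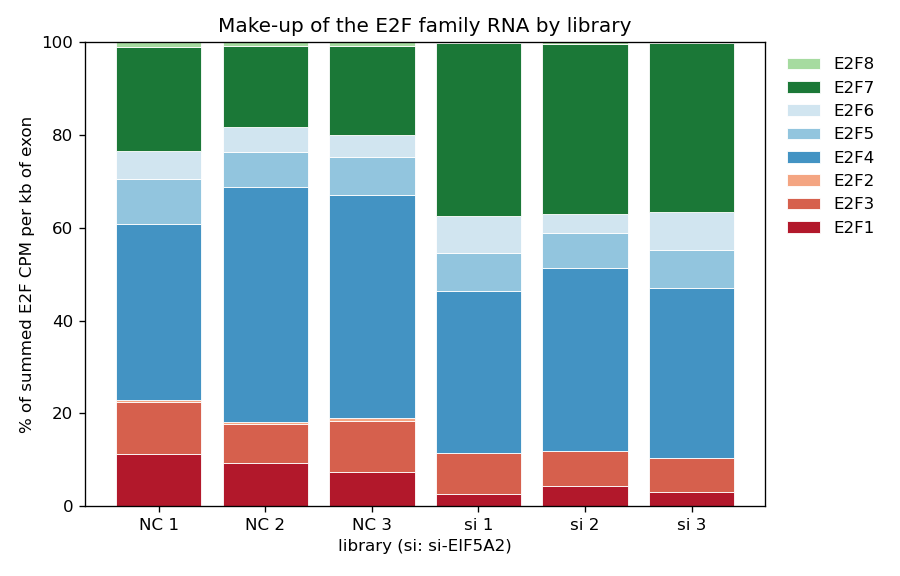
Make-up of the E2F family in each library as a share (%) of the summed CPM per kb of exon of E2F1 to E2F8; each bar is 1 library, reds are activators, blues are E2F4 to E2F6 and greens the atypical repressors. The dark green E2F7 segment averages 19.6% in NC and 36.8% in si-EIF5A2, and the red activator segments 20.0% and 11.3%.

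By the root mean square difference of centred log2 CPM over the 6 libraries, the genes with the pattern most like that of E2F1 were PAN2 (0.0873), ASIC1 (0.103) and ELP5 (0.107). Those most like E2F7 were PCYOX1 (0.0298), TMCC3 (0.0306) and SERINC1 (0.0310). For E2F2 they were NUPR1 (0.318), ARHGAP11B (0.400) and RAB7B (0.409), and for E2F8 they were ECM2 (0.248), STARD5 (0.316) and HSD17B8 (0.337). The distances were larger for E2F2 and E2F8, whose libraries held few fragments.

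The pocket proteins and the MuvB complex carry E2F repression, and MuvB later joins the activators MYBL2 and FOXM1, which were listed with them. Values in parentheses after a gene of this and the following lists are log2 fold changes. Of 10 listed genes, 5 were called lower, beside 13.6% of all genes, and 0 higher, with a median log2 fold change of -0.55 beside -0.01 for all genes. Without MYBL2 and FOXM1, 3 of 8 were called lower. RB1, the retinoblastoma pocket protein that binds the activators, was at 41.4, 64.0 and 47.7 CPM in NC and at 22.2, 17.2 and 23.0 CPM in si-EIF5A2. Its log2 fold change of -1.29 was called (standard error 0.19, adjusted p = 0.00131 in the edgeR quasi-likelihood fit, Benjamini-Hochberg). RBL1 (-0.43, adjusted p = 0.0421) missed the fold limit and RBL2 (0.22, adjusted p = 0.127) missed both limits. The G2/M activators MYBL2 (-2.54) and FOXM1 (-2.26) and the MuvB subunits LIN9 (-1.38) and LIN52 (-0.66) were downregulated. LIN52 lost its call when NC replicate 2 (adjusted p = 0.0504) or si-EIF5A2 replicate 2 (-0.55, under the fold limit) was omitted.

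The cyclins, kinases and inhibitors that act on the pocket proteins numbered 15, of which 12 were tested, 7 were called lower and 1 higher (median -0.84), beside 13.6% and 11.1% of all genes. The 2 cyclin E genes, both E2F targets and both partners of CDK2, went in opposite directions. CCNE1 was at 8.25, 8.03 and 8.17 CPM in NC and at 26.5, 27.5 and 30.2 CPM in si-EIF5A2 (log2 fold change 1.78, standard error 0.10). CCNE2 was at 4.78, 5.34 and 4.72 CPM in NC and at 0.76, 0.82 and 0.88 CPM in si-EIF5A2 (-2.59, standard error 0.20), so neither gene's groups overlapped. CDK4 (-2.14), the kinase of the D-type cyclins, and its inhibitor CDKN2C (-2.07) were downregulated too. CCND2, CDKN2A and CDKN2B were at or near 0 in all libraries and were not tested.

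Of the 12 genes of E2F turnover and cofactors, 5 were called lower and 1 higher (median -0.29), beside 13.6% and 11.1% of all genes. CCNF, the F-box protein that targets activator E2Fs and E2F7 and E2F8 for degradation, fell from 42.3 ± 0.877 to 6.79 ± 0.789 CPM (SD, n = 3 each). CCNA2, whose kinase complex restrains E2F1, had a log2 fold change of -3.46, and SIRT1, a deacetylase that binds E2F1, one of -1.22. SKP2, the F-box protein of the E2F1 ligase, was at 12.0, 23.7 and 14.5 CPM in NC and at 9.66, 7.53 and 8.01 CPM in si-EIF5A2 (-0.99, adjusted p = 0.0199 in the edgeR quasi-likelihood fit, Benjamini-Hochberg). SKP2 lost its call without si-EIF5A2 replicate 2 (adjusted p = 0.0740) and without si-EIF5A2 replicate 3 (0.0690). MDM2, which can stabilise E2F1, was upregulated (0.79).

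The classical G1/S targets of E2F were lower almost throughout. Of 51 genes, all tested, 45 were called lower and 1, CCNE1, higher, beside 13.6% and 11.1% of all genes, and the median log2 fold change was -1.65. The 3 largest decreases of the list were in the origin licensing and firing genes MCM10 (-3.30), ORC1 (-3.26) and CDT1 (-2.77). Not called were POLA1 (-0.41), MSH6 (-0.37), MCM6 (-0.36), SLBP (0.12) and TIPIN (0.25). An exact E2F motif was present in the windows of 25 of 43 of these genes (58.1%).

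All 27 listed G2/M genes were called lower as well (13.6% of all genes), with a median of -2.67, led by KIF23 (-4.25), CDC20 (-3.65) and AURKB (-3.37). Their windows held the E2F motif in 3 of 22 genes (13.6%) and the cell cycle homology element TTTGAA in 16 of 22 (72.7%), compared with 18.2% of all genes with a window. In the family itself that element was present in E2F3 and TFDP2, 2 of 8 genes. The G1/S and G2/M genes moved in the same libraries as E2F1, E2F2 and E2F8, and their part in the family's values was not tested.

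**Figure D4:**
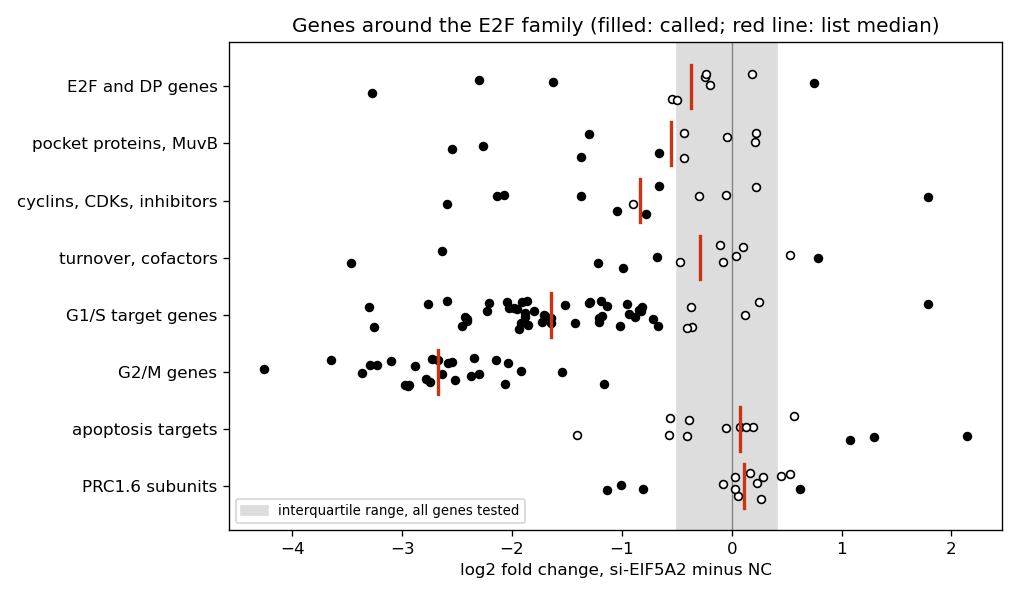
Log2 fold change (si-EIF5A2 minus NC) of the E2F and DP genes and of 7 lists of genes around them; each dot is 1 gene (filled if called), the red line is the list median and the grey band spans the interquartile range of all genes tested. All G2/M genes (median -2.67) and most G1/S genes (median -1.65) lie left of the band. In the G1/S row POLA1, MSH6, MCM6, SLBP and TIPIN lie inside it, and CCNE1, at 1.78, lies right of it.

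Of 14 known targets of E2F1 in apoptosis, 13 were tested, 3 were called higher and 0 lower (median 0.07). The 3 were 23.1% of the genes tested, near the 24.6% of all genes. Without si-EIF5A2 replicate 3 the count became 5, beside 22.4% of all genes, and TP53BP2 (-0.61) and BCL2L11 (-2.21) were then called lower. Of the BH3-only genes listed, BBC3 (1.30) and PMAIP1 (1.08) were upregulated, whereas BCL2L11 (-1.40) and BID (0.19) were not called. TP73 was at 0 in every library.

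Of the 14 partners of E2F6 in the Polycomb complex PRC1.6, 3 were called lower and 1 higher, with a median of 0.11. This was 28.6% of the list, near the 24.6% of all genes. RING1 (-1.14) and RNF2 (-1.004), the catalytic RING subunits, and the methyltransferase gene EHMT2 (-0.81) were downregulated. PCGF6 (0.62), the subunit that defines the complex, was upregulated but lost its call without NC replicate 1 (adjusted p = 0.0513), NC replicate 3 (0.0503) or si-EIF5A2 replicate 1 (0.0557). Of 10 germline genes known as E2F6 targets, 9 were too low to test, and TDRKH went from 19.7 to 27.9 CPM (0.51, adjusted p = 0.00920 in the edgeR quasi-likelihood fit, Benjamini-Hochberg), under the fold limit.

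KLF4, a stem cell transcription factor whose control by E2F1 was a question of the study, fell from 78.3 ± 6.14 to 20.5 ± 1.502 CPM (SD, n = 3 each), and its log2 fold change was -1.93, beside -1.63 for E2F1. None of the 4 E2F motifs was present in its RefSeq window, which says only that these letters are not in those 300 bases. The paper searched a longer upstream region and reports a site with other letters that responded to E2F1 in a luciferase assay. It also reports less KLF4 protein after E2F1 knockdown, and a weaker rise of KLF4 when E2F1 was silenced in cells overexpressing EIF5A2. Its own RNA-seq analysis gives a larger decrease of KLF4 than the one found here.

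The family's count of 4 moved with the threshold, as did the share of all genes. Each count below includes E2F2 and E2F8, which held few fragments in si-EIF5A2. With an adjusted p under 0.05 and no fold limit, 5 of 10 genes passed, E2F3 joining the 4, beside 36.9% of all genes. With an unadjusted p under 0.05 and more than a 2-fold difference, 3 of 10 passed, without E2F7, beside 14.6% of all genes.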

How the data were processed

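RNA-seq of 6 SKOV3 libraries was used. The authors deposited 1 table of estimated counts per Ensembl gene. Their methods name StringTie and ballgown for expression and edgeR or DESeq2 for the test; an aligner and a human genome build are not given in the sources used here, and the submitters' processing notes name Bowtie 0.12.2 with the mouse builds mm8 and mm9, although the identifiers are human. Counts came as whole numbers in steps of about 3.86, so counting precision is lower than the totals imply. Limits on values of 0 cover counting error only.

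Symbols came from a list of gene names, or from GENCODE 29 where it had none (58817 of 58825 identifiers). Exon lengths came from GENCODE 29 (58552 identifiers). No column was left unused. Counts were filtered with filterByExpr, scaled by TMM and tested with edgeR 4.0.16 (glmQLFit, robust) in R 4.3.3 over 16208 genes with Benjamini-Hochberg adjustment, with condition only in the model, after the scripts were tested on simulated data. CPM use TMM library sizes. The exact permutation test of a single value cannot go under 0.1 with 3 against 3 and was not used. The alternatives were DESeq2 1.42.0, RLE scaling, library size only, no filter, at least 10 counts in every library, a replicate block, counts divided by the step, each library left out, an unadjusted p with a fold change over 2, and no fold limit.

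The members and gene lists were chosen with earlier results of these data known. Named genes were the 10 members, EIF5A2, KLF4, RB1, RBL1, RBL2, SKP2 and CCNF, and in each other list the 3 called genes with the largest change in each direction at a mean of at least 1 CPM, with genes that just miss a call. CCNE1 and CCNE2, CCNF, and HDAC1 each stand in 2 lists. Some genes named by this rule are not reported here.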

Additional observations from a re-analysis of the deposited data

How the results depend on the processing

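E2F1 and E2F7 kept their direction and their call under DESeq2, RLE scaling, library size only, no filter, a minimum of 10 counts per library, the replicate block, counts divided by the step and each library left out in turn. No family gene changed sign under any of these. With at least 10 counts in every library, E2F2 and E2F8 were not tested, so 2 of 10 family genes, 1 activator and 1 repressor were called, beside 27.8% of all genes tested there. With each library left out, 2 to 4 of 10 family genes, 1 to 2 of 3 activators and 1 to 2 of 5 repressors were called. The share of all genes was then 21.8% to 23.3%. With an unadjusted p and a fold change over 2, 1 of 5 repressors, 3 of 12 turnover genes and 2 of 14 PRC1.6 genes were called, beside 14.6% of all genes. Of the 13 apoptosis genes tested, 3 were called. The count was 5 with no filter (15.2% of all genes) and 7 with no fold limit (36.9%). With each library left out it was 3 to 5 (21.8% to 23.3%). The 1 germline gene tested was called with no fold limit.

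Same-numbered libraries of the 2 groups shared little residual variation, with residual correlations of -0.02442, 0.005218 and -0.002695. The labels do not say whether these libraries were paired. In the paired fit with a replicate block, 3731 genes were called in place of 3992, E2F2 had an adjusted p of 0.0626 and SKP2 one of 0.0517 (edgeR's quasi-likelihood test), and 1 activator was called. Without division by exon length the change of the activator to repressor ratio was -0.95. The share of family genes with an E2F motif was 100% for the 6-letter core.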
